A study of Homo sapiens with 9 samples.

Results

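The 99 genes described here code for subunits of the 5 complexes of oxidative phosphorylation. They were taken by symbol from the protein-coding genes of the deposited tables: names beginning with MT-ND, MT-CO, MT-CYB or MT-ATP for the mitochondrial genome, and NDUFA, NDUFB, NDUFC, NDUFS or NDUFV with a number, UQCR, SDHA to SDHD, COX4 to COX8 or ATP5 for the nuclear genome. Of 31589 genes listed in any table, 17226 were protein-coding and 99 met the rule, 13 of them encoded in mitochondrial DNA and 86 in the nucleus. The name rule also brought in ATP5IF1, the inhibitor of ATP synthase, ATP5S, a factor coupling its parts, and the readthrough genes NDUFC2-KCTD14 and ATP5MF-PTCD1.

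RNA was measured by bulk sequencing of whole spinal cord organoids (SCOs), 3-dimensional cultures of developing neural tube grown from induced pluripotent stem cells of the WTC line, an established human line that the labels call wild type. All 9 libraries came from SCOs kept in FGF, a growth factor: 3 had FGF alone (vehicle), 3 had VPA (valproic acid, an inhibitor of histone deacetylases), and 3 had VPA + Rapamycin, an inhibitor of the kinase mTOR. The labels give 96 h of treatment for every library. In the study's methods the SCOs were made from edited clones that carry a SOX10 reporter and several SCOs were pooled for each RNA sample. The paper describes each column of its heatmaps as a clone, and the deposited columns carry C4, C5 and C6 in every condition. The labels do not say which clone these stand for. The main fits did not pair libraries, so the p-values measure the spread between these libraries.

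In oxidative phosphorylation, complexes I and II pass electrons from NADH and succinate to coenzyme Q, complex III passes them to cytochrome c and complex IV to oxygen. Complexes I, III and IV pump protons out of the mitochondrial matrix as they do so, and complex V, the ATP synthase, uses the returning protons to make ATP. Core subunits of complexes I, III, IV and V come from the mitochondrial genome, whose transcripts are made as long precursors and cut apart, while complex II and most subunits of the others come from nuclear genes and are imported. Neural progenitors rely strongly on glycolysis and shift towards oxidative phosphorylation as neurons mature.

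Libraries held 15290299 to 17417338 counts on genes, so 3 counts, taken as the limit of detection, correspond to 0.172 to 0.196 CPM. Levels are given as normalised counts, that is counts scaled by TMM factors over the 9 libraries. The marker genes of the neural tube were present: SOX3, a neural progenitor gene, stood at 10810 ± 1624 (SD, n = 3) normalised counts in vehicle and the neuronal gene DCX at 5180 ± 1465. Summed levels of cell type markers were compared between conditions. Summed over 13 markers, neurons gave 30560, 40440 and 55600 normalised counts in vehicle, 28260 to 30600 in VPA and 29960 to 33350 under VPA + Rapamycin. Summed over 14 mesenchymal markers the values were 4006 to 6925, 12440 to 14980 and 7013 to 8945, and over 10 neural progenitor markers 54040 to 61410, 64320 to 66360 and 57770 to 61490. Vehicle library 3 had the highest neuron sum and the lowest progenitor sum of all 9. Vehicle and VPA overlapped in the neuron sum and did not overlap in the mesenchymal and progenitor sums. Single markers can differ from a sum. Of 13 neuron markers tested VPA lowered 7 and raised 0, with 12 estimates lower. Of 13 mesenchymal markers tested it raised 4 and lowered 0, with 8 estimates higher and 5 lower. Of 10 progenitor markers 1 was raised and 1 lowered. Over all genes tested VPA raised 16.4% and lowered 15.7%. Over 11 neural crest and Schwann cell precursor markers the sums were 6736 to 8509, 6712 to 7117 and 6515 to 7124, which overlapped, and of the 10 tested 3 were raised and 4 lowered by VPA, SOX10 among the latter with 230 to 347 counts in vehicle and 5 to 10 in VPA. In bulk RNA, fewer cells of a type and less RNA per cell cannot be told apart, and the part of these marker levels in the results that follow was not tested.

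The 13 mitochondrially encoded genes made up a far larger part of the RNA than the 86 nuclear ones. Their share of all counts on genes was 4.72%, 4.57% and 5.85% in the vehicle libraries, 5.75%, 5.82% and 6.24% in VPA, and 6.52%, 4.40% and 6.02% under VPA + Rapamycin. The conditions overlapped in all 3 comparisons, since vehicle library 3 was high for its condition and VPA + Rapamycin library 2 was the lowest of the 9. Between VPA and vehicle the means stood at a ratio of 1.18, and with the spread of the vehicle libraries (SD 0.702 percentage points) the difference of 0.889 percentage points did not separate the groups. The nuclear genes took 0.557%, 0.538% and 0.534% of counts in vehicle, 0.622%, 0.623% and 0.592% in VPA, and 0.588%, 0.624% and 0.589% under VPA + Rapamycin. Every VPA and every VPA + Rapamycin library lay above every vehicle library, with ratios of means of 1.13 and 1.11, while VPA and VPA + Rapamycin overlapped.

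**Figure D1:**
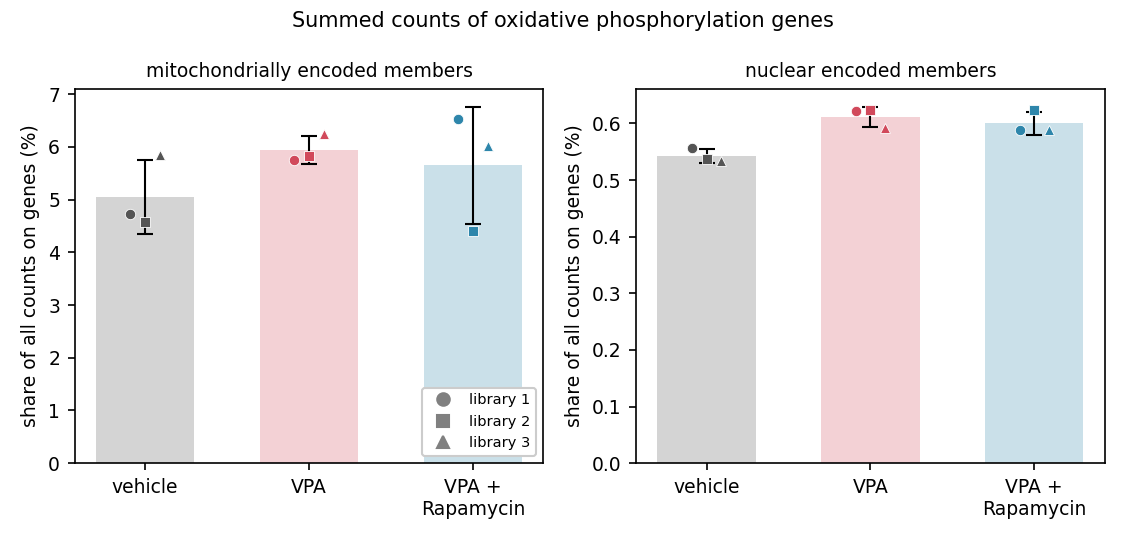
Share of all counts on genes (%) summed over the 13 mitochondrially encoded genes (left) and the 86 nuclear encoded genes (right) in each condition. Bars are means, error bars SD of 3 libraries and symbols the libraries, whose conditions overlap on the left, while on the right the vehicle libraries lie at 0.534% to 0.557% and all others at 0.588% or above.

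Per length the difference between the genomes was larger still. Expressed as TPM, which divides each gene's counts by its length and scales every library to the same total, the median mitochondrially encoded gene stood at 8418 in vehicle and the median nuclear one at 45.2. MT-CO1, the catalytic subunit of complex IV, was highest with 42760 ± 4888 TPM (SD, n = 3), and MT-ND4, MT-CYB and MT-ATP6 led complexes I, III and V. Among nuclear genes ATP5F1B, the catalytic beta subunit of ATP synthase, led with 1042 ± 46.5 TPM, followed by NDUFS5 with 425.7 ± 36.7. The deposited length of a gene counts all its annotated exon bases, so the order by TPM also follows the annotation. ATP5F1A had 11430 normalised counts in vehicle beside 10720 for ATP5F1B, but only 236.5 TPM, with a length of 10908 bases against 2322. UQCRC1 led the nuclear genes of complex III with 187 ± 25.1 TPM, COX8A those of complex IV with 243 ± 33.5, and SDHB complex II with 33.9 ± 2.54. The 4 genes of complex II lay close together between 29.5 and 33.9 TPM in vehicle, within their spread, and 13 nuclear genes lay below 10 TPM.

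The spread within conditions was not the same for the genomes. For genes with a mean of at least 100 normalised counts, the median coefficient of variation of the mitochondrially encoded genes was 17.9% in vehicle, 5.97% in VPA and 22.6% under VPA + Rapamycin. For the nuclear encoded genes it was 10.9%, 6.04% and 5.74%, and over all genes 13.5%, 6.95% and 8.04%. The mitochondrially encoded genes therefore varied more than other genes between the vehicle libraries and between the VPA + Rapamycin libraries, and no more than them between the VPA libraries.

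The first comparison asks what VPA does to SCOs. After exposure to VPA, 21 of the 95 genes tested were raised and 3 lowered at an adjusted p of at most 0.05 (edgeR's quasi-likelihood test, Benjamini-Hochberg adjustment over 17360 genes). Over all genes tested 32.1% were called, 16.4% raised and 15.7% lowered, and over protein-coding genes 18.9% and 15.7%. Of the oxidative phosphorylation genes 22.1% were raised, close to these shares, and 3.16% lowered, which was below them. The estimate was higher in VPA for 72 of the 95, and their median log2 fold change was 0.16, against 0.00 over all genes and 0.03 over protein-coding genes. Of the 95 genes 33 had every VPA library above every vehicle library and 7 had every VPA library below, which is 34.7% and 7.37% against 24.2% and 23.3% of all genes. The 4 genes not tested, NDUFC2-KCTD14, COX7A1, COX8C and ATP5MF-PTCD1, had no more than 7 counts in a library. COX4I2, COX6A2 and COX7B2, tissue-restricted alternatives of complex IV subunits, are not listed in any table.

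By complex, the median log2 fold changes of the nuclear encoded genes after VPA were 0.12 in complex I (38 genes), 0.16 in complex II (4 genes), 0.17 in complex III (9 genes), 0.26 in complex IV (12 genes) and 0.14 in complex V (19 genes). All of these lay within a narrow range above 0. In complex IV 11 of 12 estimates were higher and 4 genes were raised, and in complex I 25 of 38 were higher, 8 raised and 2 lowered. Complex I here holds every gene with an NDUF name, including NDUFA4 and the raised NDUFA4L2, which have since been placed with complex IV. The 13 mitochondrially encoded genes had a median of 0.17, with 2 raised, 0 lowered and 11 estimates higher. In DESeq2 2 of these genes were raised and 0 lowered, and without adjustment the counts at a p of at most 0.05 were 2 and 0. Among all 17360 genes tested 3757 were raised and 3735 lowered at that p.

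**Figure D2:**
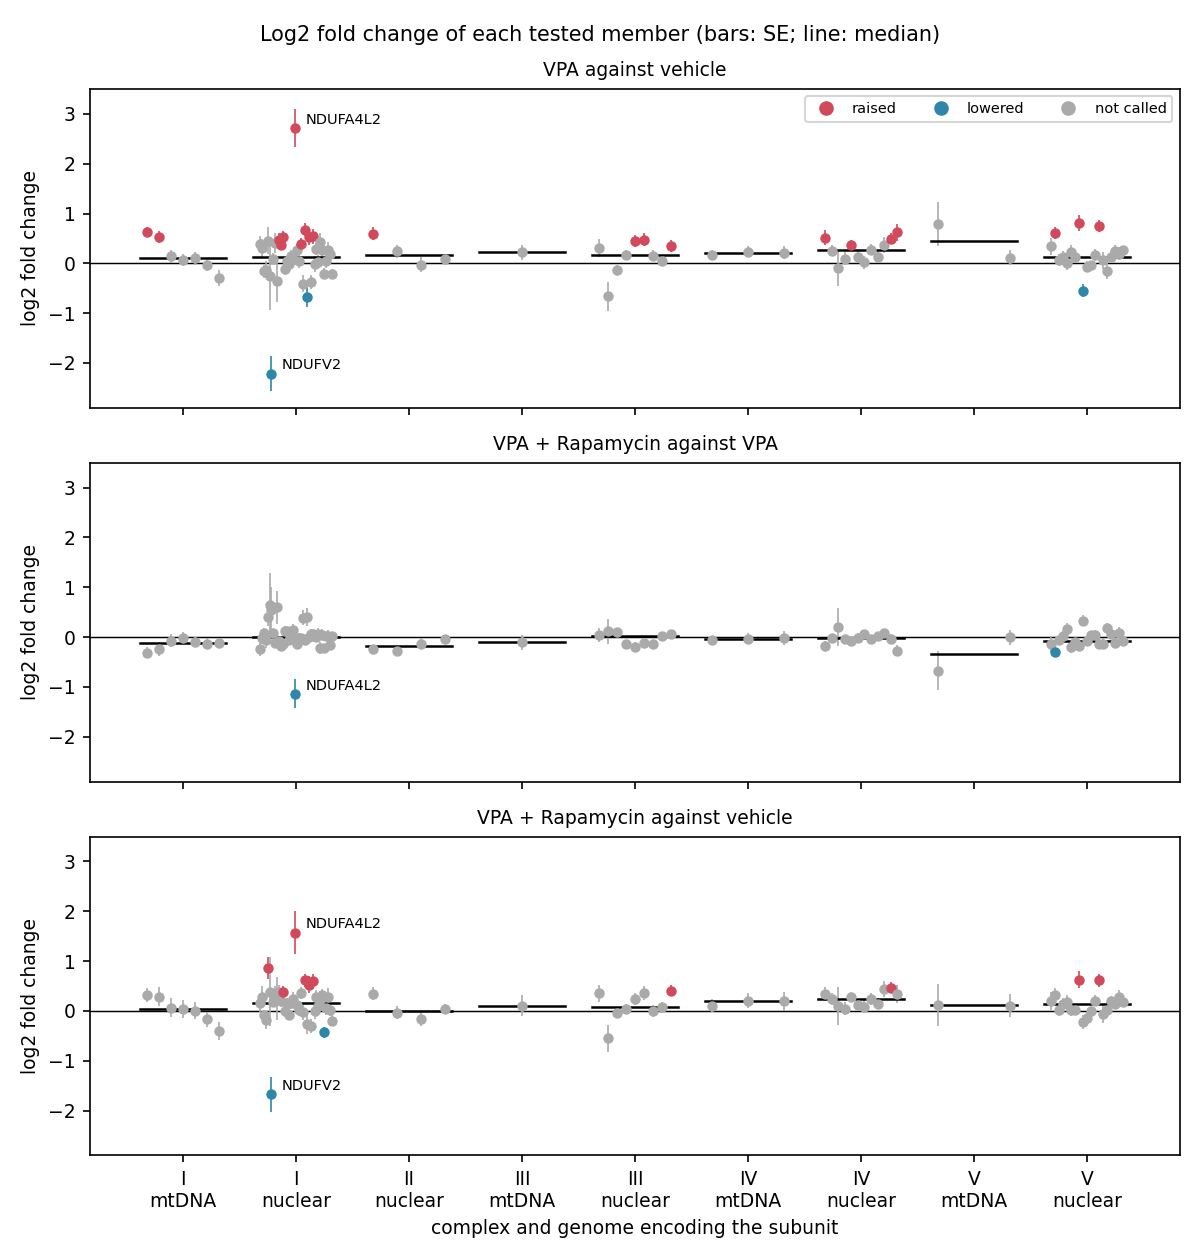
Log2 fold change of each tested gene, by complex (every NDUF name under I) and by the genome that encodes it, in the 3 comparisons. Error bars are SE, black lines medians, red raised, blue lowered and grey not called; in VPA against vehicle most estimates lie a little above 0, with NDUFA4L2 at 2.72 and NDUFV2 at -2.21.

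Among the mitochondrially encoded genes only MT-ND1 and MT-ND2, subunits of the membrane arm of complex I, passed the test in VPA against vehicle. MT-ND1 stood at 31890, 28990 and 34920 normalised counts in the vehicle libraries, at 50680, 49160 and 48130 in VPA and at 47380, 31460 and 40280 under VPA + Rapamycin. VPA and vehicle did not overlap, whereas VPA + Rapamycin reached from the vehicle range nearly to that of VPA. The log2 fold change was 0.63 (SE 0.09, adjusted p = 0.00059 in edgeR's quasi-likelihood test), a fold of 1.55.

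MT-ND2 stood at 37670, 32680 and 46650 normalised counts in vehicle, 56050, 51710 and 61040 in VPA, and 59060, 32030 and 51640 under VPA + Rapamycin. VPA lay above vehicle without overlap, and VPA + Rapamycin overlapped both. Its log2 fold change in VPA was 0.53 (SE 0.12, adjusted p = 0.00829 in edgeR's quasi-likelihood test). Reads of MT-ND2 may be shared with MTND2P28, a nuclear copy on chromosome 1 with 2618 ± 564 normalised counts in vehicle and 3581 ± 402 in VPA, which rose with it (log2 fold change 0.45, adjusted p = 0.0354).

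The remaining 11 mitochondrially encoded genes did not pass. MT-CO1, MT-CO2 and MT-CO3, the core of complex IV, had log2 fold changes of 0.17, 0.23 and 0.21 (adjusted p 0.211, 0.133 and 0.211 in edgeR's quasi-likelihood test), and MT-CYB of complex III 0.22 (adjusted p = 0.274). MT-CO1 illustrates the overlap, with 264900, 272800 and 340300 normalised counts in vehicle and 321800, 334500 and 331300 in VPA. Vehicle library 3 was above all 3 VPA libraries. The complex I genes MT-ND3, MT-ND4, MT-ND4L and MT-ND5 had values of 0.14, 0.10, 0.07 and -0.04, and MT-ATP6 of complex V 0.11. Reads of MT-ATP6 and MT-CO1 may also be shared with nuclear copies on chromosome 1. In vehicle MTATP6P1 had 5636 ± 1429 normalised counts and MTCO1P12 350.2 ± 14.4. MT-ND6, the one member read from the light strand, had -0.29 (SE 0.15, adjusted p = 0.163).

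These values depended on vehicle library 3. Without it 9 mitochondrially encoded genes were raised and the total rose from 21 to 32, among them MT-CO1 at 0.29 (adjusted p = 0.00272), MT-CO2 at 0.37 (adjusted p = 0.00171), MT-CYB at 0.41 (adjusted p = 0.00216) and MT-ND4 at 0.29 (adjusted p = 0.00563), all by edgeR's quasi-likelihood test. The raised among all genes tested went from 2840 to 3326 at the same time. Without vehicle library 1, MT-CO3 was raised with 0.34 (adjusted p = 0.0228) and MT-ND6 lowered with -0.44 (adjusted p = 0.011). MT-ND1 and MT-ND2 were past the threshold in every one of the 14 alternatives run.

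MT-ATP8, a small subunit of complex V, had the widest spread. It overlaps the start of MT-ATP6 on the same strand, so reads over the shared bases are uncertain. The gene spans chrMT:8366-8572 (GRCh38, plus strand, protein-coding), and its 207 bases are shown 5′ to 3′ from the GENCODE 29 transcript because the 46 bases in capitals are those shared with MT-ATP6.
MT-ATP8: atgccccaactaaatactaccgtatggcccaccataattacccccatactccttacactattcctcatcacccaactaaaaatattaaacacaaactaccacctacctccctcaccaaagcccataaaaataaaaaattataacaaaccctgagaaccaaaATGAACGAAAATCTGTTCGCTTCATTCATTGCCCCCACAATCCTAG
It was counted at 45.0, 30.5 and 68.3 normalised counts in vehicle, 124.9, 33.5 and 90.9 in VPA, and 56.9, 24.0 and 75.7 under VPA + Rapamycin, where its neighbour MT-ATP6 had 43010 to 86100. The conditions overlapped, and the log2 fold change of 0.79 in VPA (SE 0.44) did not pass (adjusted p = 0.191 in edgeR's quasi-likelihood test). How the counting treated reads over the shared bases is not given in the sources used here.

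Because the total of the mitochondrially encoded genes varied between libraries, their make-up was also compared as the share of each gene in the counts of all 13. MT-ND1 took 4.01%, 3.81% and 3.45% of this pool in vehicle, 5.35%, 5.13% and 4.72% in VPA, and 4.41%, 4.46% and 4.13% under VPA + Rapamycin. These 3 ranges did not overlap, with VPA + Rapamycin in between, and each of the 3 comparisons gave p = 0.1 in a two-sided exact permutation test, the smallest that 3 libraries against 3 can give. MT-ND2 took 4.30% to 4.74% in vehicle and 5.39% to 5.99% in VPA, with VPA + Rapamycin at 4.54% to 5.50% overlapping both. Its exact permutation p for VPA against vehicle was 0.1 as well.

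Of the remaining genes 3 took a lower share after VPA. MT-ND5 took 5.61%, 5.86% and 5.64% of the pool in vehicle, 4.91%, 4.86% and 4.84% in VPA and 4.66%, 4.78% and 4.73% under VPA + Rapamycin, with no overlap between any 2 conditions (exact permutation p = 0.1 in each comparison). MT-ND6 took 1.53% to 1.98% in vehicle, 1.26% to 1.32% in VPA and 1.23% to 1.36% under VPA + Rapamycin, and MT-ND4L 1.25% to 1.28%, 1.13% to 1.21% and 1.15% to 1.27%. For both of these VPA lay below vehicle without overlap. MT-CO1, the largest at 33.3% to 35.9% in vehicle and 32.5% to 34.9% in VPA, and the 7 other genes overlapped, so 2 of 13 shares were higher and 3 lower without overlap after VPA. A share can fall because another rises, and with 3 libraries a condition none of the exact tests could go below 0.1.

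In the order of the mitochondrial genome, leaving aside the thinly counted MT-ATP8, the log2 fold changes after VPA were largest at MT-ND1 and MT-ND2, the first protein-coding genes after the ribosomal RNAs, and below 0 at MT-ND5 and MT-ND6, whose starts lie 9030 and 11366 bases from that of MT-ND1, MT-ND6 being read from the other strand. The genes between did not fall in a steady order: MT-CO1 (0.17) was below MT-CO2 (0.23), MT-ATP6 (0.11) below MT-CO3 (0.21), and MT-CYB, at 11440 bases, had 0.22. The ribosomal RNAs, which lie before MT-ND1, are not members but were read beside it: MT-RNR1 had 20810 ± 2852 normalised counts (SD, n = 3) in vehicle, 27090 ± 3703 in VPA and 17960 ± 148 under VPA + Rapamycin. It rose in VPA (log2 fold change 0.38, adjusted p = 0.0352 in edgeR's quasi-likelihood test) and was lower in VPA + Rapamycin than in VPA (-0.59, adjusted p = 0.000389). MT-RNR2, the more abundant, had 112500 ± 15060 in vehicle, 135700 ± 13680 in VPA and 111800 ± 13330 under VPA + Rapamycin. It did not pass in the same 2 comparisons (0.27, adjusted p = 0.0823, and -0.28, adjusted p = 0.071, in the same test). Ribosomal RNA in libraries selected on poly-T beads is what the selection left over, so its level also follows that step.

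**Figure D3:**
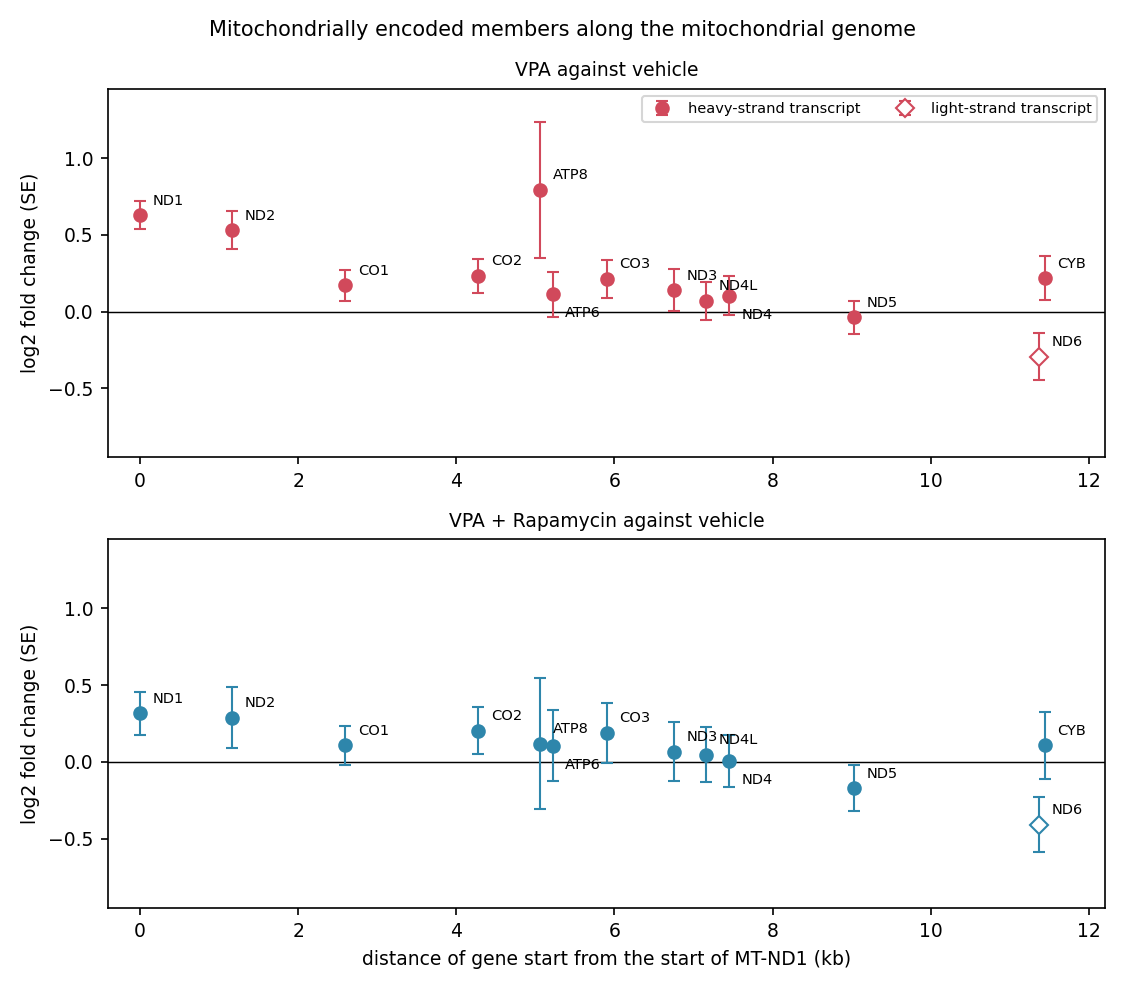
Log2 fold change of the 13 mitochondrially encoded genes against the distance of the gene start from the start of MT-ND1 (kb), for VPA against vehicle (top) and VPA + Rapamycin against vehicle (bottom). Error bars are SE, filled circles heavy-strand transcripts and the open diamond the light-strand transcript MT-ND6; values run from 0.63 at MT-ND1 to -0.29 at MT-ND6 in the upper panel, with the thinly counted MT-ATP8 above them at 0.79, and from 0.32 to -0.41 in the lower, and the genes between do not fall in a steady order.

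Among the nuclear encoded genes 19 were raised and 3 lowered by VPA. NDUFA4L2 showed the largest increase. It is an alternative form of NDUFA4, a subunit first described in complex I and since placed with complex IV, and it is known as a gene induced by low oxygen. Its normalised counts were 7.83, 18.5 and 15.5 in vehicle, 122.0, 66.0 and 87.1 in VPA, and 29.4, 56.6 and 38.4 under VPA + Rapamycin. No 2 conditions overlapped. The log2 fold change of VPA against vehicle was 2.72 (SE 0.38, adjusted p = 0.000479 in edgeR's quasi-likelihood test), a fold of 6.57. NDUFA4 itself stood far higher, at 135.5 ± 10.4 TPM against 1.13 ± 0.464 TPM for NDUFA4L2 in vehicle and 7.15 ± 2.18 TPM in VPA, and its log2 fold change of 0.09 did not pass (adjusted p = 0.551).

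The ATP synthase subunit c, the ring that turns with the passing protons, is coded by 3 genes whose mature proteins are the same. ATP5MC1 had 486.7, 367 and 306.6 normalised counts in vehicle, 641, 685 and 697 in VPA, and 585, 629 and 579 under VPA + Rapamycin. Both treated conditions lay above vehicle without overlap. It rose in VPA with a log2 fold change of 0.80 (SE 0.16, adjusted p = 0.0037 in edgeR's quasi-likelihood test). ATP5MC3 had 1862, 1813 and 1866 in vehicle and 2230, 2227 and 2180 in VPA, again without overlap, and its log2 fold change of 0.26 (SE 0.09) fell just outside the threshold (adjusted p = 0.0502). ATP5MC2, the most abundant of them with 255 ± 37.1 TPM in vehicle against 61.5 ± 1.30 for ATP5MC3 and 33.4 ± 8.16 for ATP5MC1, had 5181, 4364 and 3985 normalised counts in vehicle and 4427, 4315 and 4178 in VPA, which overlapped (log2 fold change -0.07, SE 0.11). The difference between the genes was not tested.

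**Figure D4:**
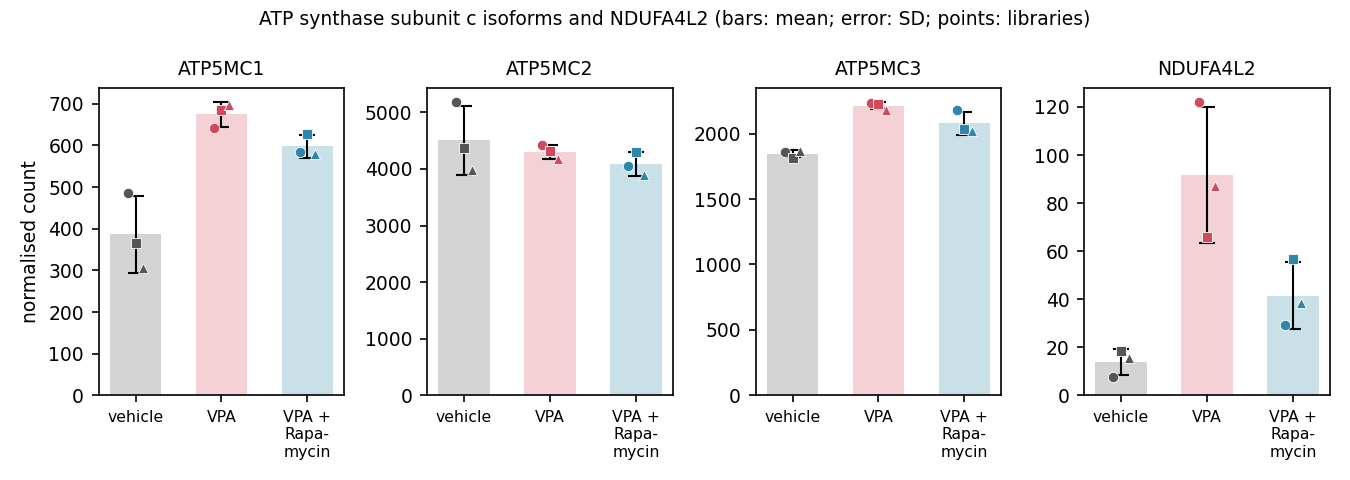
Normalised counts of the 3 genes of ATP synthase subunit c and of NDUFA4L2 in each condition. Bars are means, error bars SD of 3 libraries and symbols the libraries (circle 1, square 2, triangle 3); ATP5MC1 and NDUFA4L2 lie above vehicle in every treated library, and the ATP5MC2 libraries of vehicle and VPA overlap.

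ATP5PD and ATP5F1D, subunits of the stalks of ATP synthase, rose as well. ATP5PD had 528, 506 and 453 normalised counts in vehicle, 804, 896 and 800.2 in VPA, and 697, 820 and 756 under VPA + Rapamycin, and both treated conditions lay above vehicle. Its log2 fold change in VPA was 0.75 (SE 0.12, adjusted p = 0.000982 in edgeR's quasi-likelihood test). ATP5F1D had 1154, 895 and 939 in vehicle, 1458, 1565 and 1562 in VPA, and 1193, 1376 and 1175 under VPA + Rapamycin, with no overlap between any 2 conditions. Its log2 fold change in VPA was 0.62 (SE 0.12, adjusted p = 0.00293).

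In complex I, NDUFA12, an accessory subunit of the matrix arm, had 274, 310.3 and 274 normalised counts in vehicle, 456, 486 and 430.1 in VPA, and 476, 420.4 and 416 under VPA + Rapamycin. The treated libraries all lay above vehicle, and the log2 fold change in VPA was 0.68 (SE 0.13, adjusted p = 0.00309 in edgeR's quasi-likelihood test). The accessory subunits NDUFA1, NDUFA6, NDUFA8, NDUFB6, NDUFC2 and NDUFS5 were also raised, with log2 fold changes of 0.37 to 0.54. The core subunits NDUFS1, NDUFS3, NDUFS7, NDUFS8 and NDUFV1 did not pass, with values from -0.02 to 0.39.

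In complex II, SDHA, the flavoprotein that oxidises succinate, had 1352, 1210 and 968 normalised counts in vehicle, 1712, 1741 and 1884 in VPA, and 1407, 1597 and 1483 under VPA + Rapamycin. No 2 conditions overlapped, and it rose in VPA with a log2 fold change of 0.60 (SE 0.13, adjusted p = 0.00529 in edgeR's quasi-likelihood test). Its pseudogenes were counted at a mean of 628 in all per library beside 1491 for SDHA, so its reads are uncertain where copies are alike. SDHAP1 moved the other way, with 551 ± 136 normalised counts in vehicle and 340.3 ± 10.7 in VPA (log2 fold change -0.69, adjusted p = 0.00962). SDHB, SDHC and SDHD, the iron-sulphur subunit and the membrane anchors, had values of 0.24, 0.08 and -0.03, none past the threshold.

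In complex III, the small subunits UQCRH, UQCR10 and UQCRQ were raised with log2 fold changes of 0.47, 0.44 and 0.36 (adjusted p 0.0166, 0.0173 and 0.0397 in edgeR's quasi-likelihood test). UQCRFS1, the Rieske iron-sulphur protein, had 0.17 and the core proteins UQCRC1 and UQCRC2 0.15 and -0.13, none of which passed. UQCRHL, an intronless relative of UQCRH, had -0.66 (SE 0.29, adjusted p = 0.0988), and reads of such a close copy cannot be assigned with certainty.

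In complex IV, COX6A1, COX6B1, COX6C and COX5A were raised with log2 fold changes of 0.62, 0.51, 0.50 and 0.36 (adjusted p 0.0137, 0.0193, 0.00499 and 0.0199 in edgeR's quasi-likelihood test). COX6C had 841, 855 and 902 normalised counts in vehicle, 1190, 1296 and 1174 in VPA, and 1127, 1304 and 1148 under VPA + Rapamycin, with the treated libraries above vehicle throughout. COX4I1, the subunit through which ATP regulates the complex, had 2952, 2440.0 and 2384 in vehicle and 3244, 3082 and 3052 in VPA, without overlap, and did not pass (0.27, adjusted p = 0.0759). COX7A2, COX7B and COX8A had 0.12, 0.02 and 0.09. Their tissue-restricted relatives were rare or near the detection limit: COX6B2 had 21.8 to 31.3 normalised counts in vehicle, and COX7A1 and COX8C did not exceed 6.88 in any library.

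The 3 lowered genes were NDUFV2, ATP5S and NDUFB8. NDUFV2, a core iron-sulphur subunit of the NADH-oxidising module of complex I, had 93.0, 73.0 and 76.6 normalised counts in vehicle, 24.6, 17.3 and 10.3 in VPA, and 12.8, 29.8 and 33.2 under VPA + Rapamycin. Both treated conditions lay below vehicle without overlap, and the log2 fold change in VPA was -2.21 (SE 0.35, adjusted p = 0.000944 in edgeR's quasi-likelihood test), a fold of 0.216. At 6.73 ± 0.859 TPM in vehicle it was counted far below the median nuclear gene, and 28.4% of its exon bases are shared with a transcript annotated on the same strand, AP005263.1, over which reads may have been discarded. The values therefore describe the reads that were counted for NDUFV2, and how many were not is unknown here. NDUFV1, its partner in the same module, had 0.26 (adjusted p = 0.171).

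ATP5S had 424, 491 and 464 normalised counts in vehicle, 300.0, 344 and 298 in VPA, and 386, 359 and 438 under VPA + Rapamycin. VPA was the lowest condition, without overlap with either of the others (log2 fold change -0.55, SE 0.13, adjusted p = 0.00983 in edgeR's quasi-likelihood test). NDUFB8, an accessory subunit of the membrane arm, had 203, 164 and 144 in vehicle, 100.3, 101 and 118 in VPA and 133, 156 and 135 under VPA + Rapamycin, with a log2 fold change in VPA of -0.67 (SE 0.20, adjusted p = 0.0248). Of its exon bases 48.5% are shared with other genes.

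**Figure D5:**
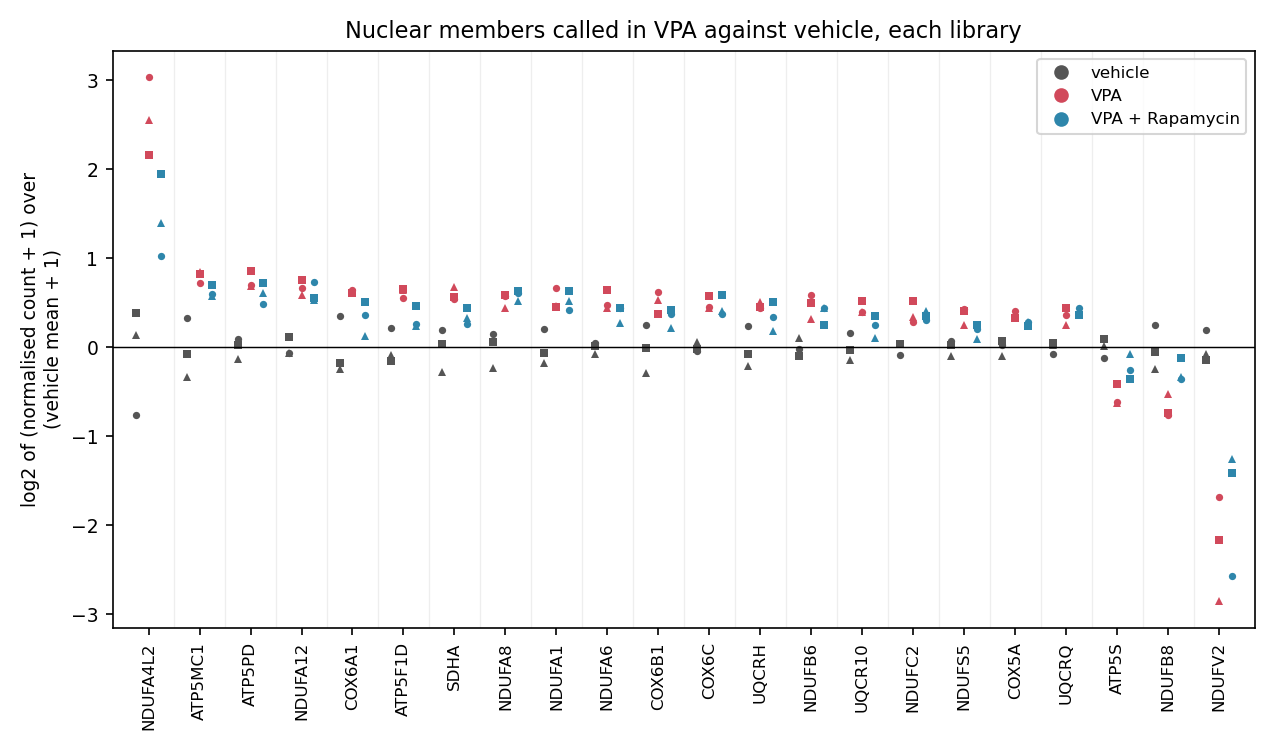
Nuclear encoded genes called in VPA against vehicle, in each library, as the log2 of the normalised count plus 1 over the vehicle mean plus 1. Grey is vehicle, red VPA and blue VPA + Rapamycin, and circle, square and triangle are libraries 1, 2 and 3; most genes lie above 0 in both treated conditions, NDUFA4L2 lies highest and NDUFV2 lowest.

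The second comparison asks what Rapamycin changes in SCOs exposed to VPA. It shares the VPA libraries with the first. Of 95 genes tested 0 were raised and 2 lowered, against 6.74% called over all 17317 genes (3.01% raised and 3.73% lowered), and the 2.11% lowered was near or below that background. In DESeq2 0 were raised and 3 lowered, and at an unadjusted p of at most 0.05 edgeR's quasi-likelihood test gave 4 raised and 10 lowered. Among all 17317 genes 1802 were raised and 1912 lowered at that p. The median log2 fold change of the 95 genes was -0.03, against 0.00 over all genes.

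NDUFA4L2 and ATP5F1D were the genes lowered. The normalised counts given above correspond to a log2 fold change of -1.14 for NDUFA4L2 (SE 0.29, adjusted p = 0.0245 in edgeR's quasi-likelihood test) and of -0.29 for ATP5F1D (SE 0.08, adjusted p = 0.0381). Both calls ended in part of the alternatives, with adjusted p up to 0.154 for NDUFA4L2 and 0.273 for ATP5F1D. SDHA was near them with -0.25 (SE 0.08, adjusted p = 0.0605).

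All 13 mitochondrially encoded genes had lower estimates in VPA + Rapamycin than in VPA, with a median of -0.10, and none passed in edgeR's quasi-likelihood test or in DESeq2, with 1 at an unadjusted p of at most 0.05. With no filter on low counts MT-ND1 and MT-ND2 were lowered. These genes share libraries and vary together, so their common sign is not 13 separate observations. MT-ND1 had -0.31 (SE 0.10, adjusted p = 0.0806 in edgeR's quasi-likelihood test), MT-ND2 -0.24 (SE 0.14) and MT-ND5 -0.13 (SE 0.10), and MT-CO1, MT-CO2, MT-CO3 and MT-ATP6 lay between -0.06 and -0.01. The sign depended on VPA + Rapamycin library 2: without it MT-ATP6 was raised with 0.24 (adjusted p = 0.0477 in edgeR's quasi-likelihood test), MT-CO3 had 0.18 and MT-ND1 -0.17, and without VPA + Rapamycin library 1 MT-ND1 was lowered with -0.46. Of the nuclear encoded genes 38 estimates were higher and 44 lower, and the 4 genes of complex II were all lower, with a median of -0.19.

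The third comparison sets VPA + Rapamycin against vehicle and shares libraries with both others. Here 10 of 95 genes were raised and 2 lowered, against 19.0% called over all 17383 genes (9.81% raised and 9.22% lowered). The raised share of 10.5% was close to the background, the lowered share of 2.11% was below it, 76 estimates were higher, 27.4% of the genes lay above vehicle without overlap against 19.6% of all genes, and the median log2 fold change was 0.15 against 0.00 over all genes. None of the 13 mitochondrially encoded genes passed, in edgeR's quasi-likelihood test or in DESeq2, and at an unadjusted p of at most 0.05 1 was higher and 1 lower. Among all 17383 genes 2911 were higher and 2961 lower at that p.

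The raised genes were all nuclear. NDUFA4L2 had a log2 fold change of 1.57 (SE 0.43, adjusted p = 0.0286 in edgeR's quasi-likelihood test), where VPA alone had 2.72. ATP5PD had 0.61 (adjusted p = 0.00812), NDUFA12 0.61 (adjusted p = 0.0125), COX6C 0.46 (adjusted p = 0.0162) and ATP5MC1 0.63 (adjusted p = 0.0243), beside 0.75, 0.68, 0.50 and 0.80 in VPA. NDUFA8, NDUFA1, NDUFA6 and UQCRQ were raised with 0.59, 0.53, 0.39 and 0.41. NDUFA11, an accessory subunit of complex I, was raised in this comparison with 0.86 (SE 0.22, adjusted p = 0.0224) and had 115.6, 116 and 71.5 normalised counts in vehicle, 98.3, 153 and 165 in VPA and 201.0, 178 and 171 under VPA + Rapamycin. Its VPA libraries overlapped vehicle and lay below VPA + Rapamycin.

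NDUFV2 was lowered, with -1.68 (SE 0.35, adjusted p = 0.00969 in edgeR's quasi-likelihood test), where VPA alone had -2.21. Its 3 libraries under VPA + Rapamycin overlapped those of VPA and lay below all of vehicle.

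Calls in the first comparison were tried under 14 alternatives (13 for NDUFA4L2), and 11 of the 24 were past the threshold in all of them: MT-ND1, MT-ND2, NDUFA4L2, ATP5PD, ATP5F1D, ATP5MC1, NDUFA12, NDUFA6, COX6C, SDHA and NDUFV2. In the third comparison these were ATP5PD and NDUFV2, 2 of 12, and in the second 0 of 2. With 1 library left out the raised genes of the first comparison numbered 11 without vehicle library 2, 10, 12 and 13 without VPA library 1, 2 or 3, and 29 without vehicle library 1. The raised among all genes tested also moved, from 2840 to 1968, 1902, 1791, 1831 and 3480 in the same order. The raised genes of the third numbered 3 without vehicle library 2, 1, 3 and 2 without VPA + Rapamycin library 1, 2 or 3, and 17 without vehicle library 1. Among all genes tested those raised went from 1705 to 883, 761, 821, 862 and 2204 in the same order.

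The start regions of the nuclear encoded genes were read for 6 motifs. RefSeq promoters (GRCh38.p14, 250 bases before to 50 after the start) were found for 69 of the 86. All motifs were searched on both strands. The palindromic motif of NRF1 (nuclear respiratory factor 1), with 1 base left free, was in 24.6% of them and in 5.78% of all 35116 promoters of the same length. This wider set was not limited to protein-coding or expressed genes, and a set matched to the 69 was not compared. CCGGAAG, of ETS factors such as GABPA, was in 20 of 69 against 10.3%, the CREB motif TGACGTCA in 7.25% against 1.85%, and the YY1 motif in 5.80% against 0.849%. The AP-1 motif TGANTCA was in 4.35% against 7.71%. ACGTG, a form of the hypoxia response core whose form GCGTG was not searched, was in 24.6% against 21.4%. Of the 15 promoters of genes raised by VPA 0 held the AP-1 motif and 5 held ACGTG. Of these 15 promoters 4 held the NRF1 and 6 the ETS motif, and of the 50 of genes not called 12 and 14 did.

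The sequences of 6 genes are shown because they include genes that rose most clearly (NDUFA12, ATP5PD, ATP5MC1 and NDUFA4L2), the most abundant subunit c gene, which did not pass (ATP5MC2) and the gene with the strongest decrease (NDUFV2). Each is the 250 bases before the start, 5′ to 3′ on the strand of the gene, with matches to the NRF1, ETS, CREB and YY1 motifs in capitals. They lie at chr12:95003698-95003947 (minus strand), chr17:75046970-75047219 (minus), chr17:48892537-48892786 (plus), chr12:57240745-57240994 (minus), chr12:53675420-53675669 (minus) and chr18:9102449-9102698 (plus) in this order.
NDUFA12: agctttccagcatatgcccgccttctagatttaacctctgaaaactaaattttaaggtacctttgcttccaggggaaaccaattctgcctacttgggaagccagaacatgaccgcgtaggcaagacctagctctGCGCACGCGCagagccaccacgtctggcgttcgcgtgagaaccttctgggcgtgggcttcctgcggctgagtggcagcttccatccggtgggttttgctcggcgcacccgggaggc
ATP5PD: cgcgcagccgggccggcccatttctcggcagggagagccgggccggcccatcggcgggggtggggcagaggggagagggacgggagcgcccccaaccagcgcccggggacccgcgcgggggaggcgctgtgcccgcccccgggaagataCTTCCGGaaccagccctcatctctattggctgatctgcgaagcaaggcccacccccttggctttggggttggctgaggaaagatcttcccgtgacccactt
ATP5MC1: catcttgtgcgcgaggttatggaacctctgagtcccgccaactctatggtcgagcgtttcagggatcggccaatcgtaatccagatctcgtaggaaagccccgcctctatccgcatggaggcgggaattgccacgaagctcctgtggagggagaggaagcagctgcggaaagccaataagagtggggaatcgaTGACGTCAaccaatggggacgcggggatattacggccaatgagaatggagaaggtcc
NDUFA4L2: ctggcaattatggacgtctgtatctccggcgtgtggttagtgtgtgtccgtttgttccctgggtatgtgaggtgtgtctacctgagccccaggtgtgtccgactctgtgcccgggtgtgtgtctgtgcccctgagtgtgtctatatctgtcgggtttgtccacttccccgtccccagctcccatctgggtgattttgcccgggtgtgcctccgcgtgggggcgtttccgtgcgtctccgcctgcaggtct
ATP5MC2: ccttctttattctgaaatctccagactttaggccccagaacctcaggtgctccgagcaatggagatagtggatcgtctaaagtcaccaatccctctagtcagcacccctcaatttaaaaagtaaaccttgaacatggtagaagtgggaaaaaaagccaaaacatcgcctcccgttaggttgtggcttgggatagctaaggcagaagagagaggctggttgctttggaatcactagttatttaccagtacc
NDUFV2: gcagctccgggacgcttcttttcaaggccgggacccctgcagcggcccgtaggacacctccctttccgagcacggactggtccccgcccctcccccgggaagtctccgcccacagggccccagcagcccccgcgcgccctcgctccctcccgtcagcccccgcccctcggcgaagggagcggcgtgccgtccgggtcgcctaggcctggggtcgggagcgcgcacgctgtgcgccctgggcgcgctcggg
The NRF1 motif was found in NDUFA12 at 116 bases before the start, the ETS motif in ATP5PD at 101 and the CREB motif in ATP5MC1 at 57. The windows of NDUFA4L2, ATP5MC2 and NDUFV2 held no match to these letters, and a match in a window is not evidence of binding. A single RefSeq start was read per gene. The window of ATP5MC2 lies inside the deposited gene (chr12:53632726-53677408), so a start further upstream was not read. Which start these SCOs use was not tested.

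Genes that serve oxidative phosphorylation without being members were read from lists. Of 20 regulators of mitochondrial biogenesis, 2 were raised and 3 lowered by VPA, with a median log2 fold change of -0.07. PPARGC1A, the coactivator PGC-1alpha that drives mitochondrial biogenesis, had 33.8 ± 14.1 normalised counts (SD, n = 3) in vehicle, 167.5 ± 12.8 in VPA and 143 ± 16.4 under VPA + Rapamycin. It rose with VPA by 2.31 on the log2 scale (adjusted p = 0.000218 in edgeR's quasi-likelihood test) and stood 2.09 above vehicle under VPA + Rapamycin (adjusted p = 0.00136). Its relative PPARGC1B rose by 1.68 (adjusted p = 0.00117).

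None of GABPA, GABPB1, YY1, NRF1, ESRRA, TFAM and POLRMT was raised by VPA. GABPA, GABPB1 and YY1 were lowered by VPA, with -0.56, -0.41 and -0.33 (adjusted p 0.0184, 0.0292 and 0.0254 in edgeR's quasi-likelihood test). NRF1 and ESRRA had -0.29 and 0.16 (adjusted p 0.114 and 0.499). TFAM, which packs and transcribes mitochondrial DNA, had 0.22 (adjusted p = 0.209), and the mitochondrial RNA polymerase POLRMT 0.07 (adjusted p = 0.718). In VPA + Rapamycin against VPA 1 of the 20 was raised, ESRRG with 0.54 (adjusted p = 0.00157).

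Of 77 genes of the mitochondrial ribosome, which translates the 13 mitochondrially encoded members, 18 were raised and 2 lowered by VPA, with a median of 0.20. MRPS11 and MRPS12 of the small subunit and MRPL11 of the large one rose by 0.80, 0.81 and 0.62, and MRPL32 and MRPL42 were lowered with -0.70 and -0.47. In VPA + Rapamycin against VPA 58 of 77 estimates were lower, 0 were raised and 2 lowered, MRPS12 with -0.64 (adjusted p = 0.00446) and MRPL17 with -0.43 (adjusted p = 0.0265). The sums over this list were 40270 to 42120 normalised counts in vehicle, 44240 to 45610 in VPA and 41200 to 42390 under VPA + Rapamycin, so that only VPA stood apart.

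Of 50 assembly factors of the complexes 6 were raised and 5 lowered by VPA (median 0.16). DMAC1, NDUFAF4 and NUBPL, which act in building complex I, were raised with 0.54, 0.61 and 0.51, and the complex III factors TTC19 and UQCC1 and the complex IV factor COX18 were lowered with -0.52, -0.57 and -0.44. Of 21 genes for the processing and stability of mitochondrial RNA, 2 were raised and 2 lowered (median 0.07). HSD17B10 and ELAC2, parts of the enzymes that cut transfer RNAs out of the mitochondrial precursor at its 5′ and 3′ ends, were the 2 raised, with 0.91 (adjusted p = 0.000369 in edgeR's quasi-likelihood test) and 0.54 (adjusted p = 0.00543). PTCD3 and MTPAP, the mitochondrial poly(A) polymerase, were lowered with -0.39 each, and LRPPRC, which stabilises mitochondrial mRNA, had 0.05 (adjusted p = 0.78).

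Of 17 genes of the tricarboxylic acid cycle and pyruvate dehydrogenase 5 were raised, FH, PDHA1 and SUCLG1 with the smallest p (0.43, 0.39 and 0.40), and 2 lowered, PDHX with -0.50 and IDH3G with -0.42. Of 20 carriers and other respiratory chain parts outside the name rule 3 were raised and 0 lowered in edgeR's quasi-likelihood test: CYCS, which is cytochrome c, with 0.48, HIGD2A of complex IV with 0.53 and COQ8A of coenzyme Q synthesis with 0.62. COQ8A rose further in VPA + Rapamycin against VPA (0.48, adjusted p = 0.00885). Of 10 genes of mitochondrial DNA replication 0 were raised or lowered in that test, with 2 higher and 1 lower at an unadjusted p of at most 0.05. At that p 3757 of all 17360 genes were higher and 3735 lower. Of 11 tested genes for uncoupling and antioxidant defence, PRDX5 was raised (0.42) and CAT, the catalase, lowered (-0.44) by VPA, and NNT, UCP2 and PRDX3 were lowered in VPA + Rapamycin against VPA (-0.35, -0.39 and -0.26). These lists were tested with the same fit as the members, and their calls are to be read against the same 32.1% and 6.74% of all genes.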

How the data were processed

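RNA-seq of 9 libraries was analysed from 3 pairwise tables. Messenger RNA was selected with poly-T beads, and per the submitters' processing notes HISAT2 2.0.5 and featureCounts 1.5.0-p3 were used; whether counting used strand is not given in the sources used here. The values used are raw read counts per gene, deposited by the authors, with gene length in bases as deposited by the authors, an "other" unit. The 18 FPKM columns and the columns of the authors' own comparisons (fold changes and p-values) were not used. Genes with fewer than 2 counts in a table are not listed there.

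Each table was fitted on all its genes with edgeR 4.0.16 in R 4.3.3 (TMM factors, filterByExpr, quasi-likelihood test), with Benjamini-Hochberg adjustment and a threshold of 0.05 with no minimum fold. SE is the log2 fold change over the root of F. Libraries held 15290299 to 17417338 counts, and the detection limit of 3 counts covers counting error only, while SD and SE include the spread between libraries. Shares of the mitochondrial pool were compared by exact permutation tests. Coordinates of 99 of 99 members equal GENCODE 29 (GRCh38). The scripts were tested on simulated data.

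Members and lists were chosen with earlier results of these data known. Named were all mitochondrially encoded genes, up to 5 raised and 5 lowered nuclear genes of each comparison by p, the SDH genes, alternative subunits with their partners, the highest gene per length of each complex, and up to 3 raised and 3 lowered genes of each list with 6 regulators. Other genes in the text were named after their values were seen. The result of 1 called gene is not reported here. Alternatives were DESeq2 1.42.0, upper-quartile and total-count scaling, TMM without mitochondrially encoded genes, no filter, a stricter filter (10 counts or more throughout), 1 fit over the 9 libraries, a replicate block, and each library left out.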

Additional observations from a re-analysis of the deposited data

How the results depend on the processing

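In VPA against vehicle scaling, filter and tool moved few counts, with 21 to 24 genes raised. In VPA + Rapamycin against VPA the 2 lowered genes became 1 with total counts only, 5 with no filter (MT-ND1 and MT-ND2 among them) and 0 with all 9 libraries in a single fit, where VPA + Rapamycin against vehicle had 16 raised genes in place of 10. The calls among all genes tested moved as well. In VPA + Rapamycin against VPA the single fit had 44 raised and 69 lowered in place of 522 and 646, and no filter had 923 lowered. In VPA + Rapamycin against vehicle the single fit had 2343 raised in place of 1705. Scaled by TMM, the ratio of the summed nuclear encoded genes was 1.09 for VPA and 1.06 for VPA + Rapamycin against vehicle. With 1 library left out, the arm left with 2 libraries had between 10 and 32 raised and 1 to 5 lowered genes in VPA against vehicle, 0 to 1 raised and 0 to 3 lowered in VPA + Rapamycin against VPA, and 1 to 17 raised and 1 to 3 lowered in VPA + Rapamycin against vehicle. Among all genes tested those raised ran from 1791 to 3480, 175 to 533 and 761 to 2204 in the same order. MT-ATP6 in VPA + Rapamycin against VPA ran from -0.214 to 0.236 with 1 library left out, the latter without VPA + Rapamycin library 2. The cause was not tested. The values of single genes and of median fold changes were compared with the main fit under each alternative. Of these 2066 were labelled the same, 105 lost the call, 50 gained it, 1 reversed and 1, a median, moved. The counts of raised and lowered genes and the ratios of summed levels were labelled apart, 66 the same and 30 moved beyond a set margin. For single genes the same means the same side of the threshold. A change of sign counted as reversed only where a call was made, so genes not called could change sign within the 2066.

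The replicate numbers were not taken as pairs: correlations of same-numbered libraries ran from -0.057 to 0.143, and each library correlated best with its own number only in VPA + Rapamycin against vehicle. Same-numbered libraries share a column prefix across conditions and may come from the same clone. With so few libraries these correlations cannot exclude such a pairing. With the replicate block the counts were 17 raised and 3 lowered in VPA against vehicle, 0 and 3 in VPA + Rapamycin against VPA, and 11 and 2 in VPA + Rapamycin against vehicle. The calls of COX5A, NDUFC2, NDUFS5 and UQCRQ in the first were then not made (adjusted p 0.0589, 0.0781, 0.0568 and 0.0983 in edgeR's quasi-likelihood test), and MT-ND1 was lowered in the second (-0.33, adjusted p = 0.0156).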
